A study of Medicago ruthenica with 9 samples.

Results

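Leaves of Medicago ruthenica harvested 2 days after rewatering (RW) were compared with leaves harvested after 15 days without water (DS), with 3 RNA-seq libraries in each group. These were 6 of the 9 libraries of the study, and the other 3 came from plants that had been watered throughout (CK), which are given here as a reference level with no test against RW. Of 52457 unigenes, the gene-like clusters of a transcript assembly made without a genome, 44538 reached 1 TPM, the share of transcripts scaled to library size, in at least 3 of the 9 libraries and were tested, while 7919 were not. M. ruthenica is a perennial legume used as forage, and the paper describes its seed as a cultivar with higher drought and cold resistance. All plants were 4-week-old seedlings at the start, grown 8 to a pot. The DS and RW plants had both gone 15 days without water, down to a relative soil moisture of 20%, after which the RW pots were watered to saturation. CK and DS leaves were taken on the same day and RW leaves 2 days later, so the effect of water and that of 2 more days cannot be told apart, and the hour of each harvest is not given in the sources used here. The labels call the libraries biological replicates without saying whether they came from separate plants or pots, and the p-values here reflect only how far these libraries scatter, which may be technical.

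As background, a drying leaf accumulates abscisic acid (ABA), which binds PYL receptors. The bound receptors block protein phosphatases of type 2C, and this frees SnRK2 kinases that close the stomata and switch on protective genes such as those of dehydrins. Jasmonate acts in parallel by removing JAZ (TIFY) repressors from the transcription factor MYC2, and calcium sensors, MAP kinases and ERF, DREB, NAC and WRKY factors carry the early response. When water returns, ABA is broken down or conjugated, and a leaf can resume carbon fixation, starch turnover and growth.

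Differences are given on the log2(TPM + 1) scale as RW minus DS, so that a negative value is a lower level after rewatering, and the scale understates the change of weakly expressed unigenes. Levels are listed in the order of replicates 1, 2 and 3, CK levels are means ± SD of 3 libraries, and a difference that follows the word without was fitted without the named library. Gene symbols come from sequence similarity and can differ from the protein description, and unigenes of one gene family or one assembly component may share reads. The library of RW replicate 2 was unlike the remaining 8. It lay at 151.61 on the second principal component, which held 15.0% of the variance, against −53.50 to 12.08 for the others, and its correlation with them ran from 0.803 to 0.865, while RW replicates 1 and 3 correlated at 0.904 (Pearson's r over tested unigenes, which are not independent). Differences are therefore also given without that library. They were further fitted with TPM summed over each assembly component or each protein description, which were chosen after seeing the data, and under other settings of the fit. Such values close a paragraph, in brackets after the gene, where the call changed or the value moved by over 1.5 times, and so do counts that started at 3 or more. Square brackets after the median difference of a gene list hold its lowest and highest value over the 9 fits with 1 library left out. The summed TPM per library was 994748 to 996266, so the read depth behind a value is unknown, and the number of libraries limits the precision. Leaf markers were abundant in each library. The 22 unigenes of chlorophyll a-b binding proteins, which gather light in mesophyll cells, summed to 9765 to 35401 TPM in DS, 31766 to 44651 TPM in RW and 35825 to 55426 TPM in CK. Other mesophyll markers did not share this pattern. The rubisco small chain summed to 10639 to 25896 TPM in DS, 11942 to 25272 TPM in RW and 9435 to 16955 TPM in CK. Rubisco activase went the other way, at 5741 to 11645 TPM in DS, 2257 to 5570 TPM in RW and 2799 to 5573 TPM in CK. In bulk leaves, fewer cells of a type and less RNA per cell cannot be told apart.

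After rewatering, 10 of 19 unigenes of JAZ jasmonate repressors were lower and 5 of 9 ferritins higher than in dry leaves. In all, 957 unigenes were lower and 798 higher in RW than in DS, which is 2.15% and 1.79% of those tested (limma, adjusted p under 0.05 and a difference beyond 1 on the log2 scale). The calls in each gene list are read against these shares. A change of more than 8-fold was seen in 220 of the lower and 80 of the higher unigenes. Without RW replicate 2, 659 were lower (1.48%) and 618 higher (1.39%), of which 614 and 468 were also called with it, and 0 changed direction. With each of the 9 libraries left out in turn, 448 unigenes stayed lower and 248 stayed higher in all 9 fits. The higher calls numbered 315 without RW 3, 384 without DS 2, 450 without RW 1 and 513 without DS 1, and the lower calls 519 without RW 3 and 578 without DS 2. The median difference over all tested unigenes was 0.17 and dropped to 0.06 under median-of-ratios scaling and 0.04 under quantile normalization, so changes are read against that shift. Of the list medians given here, those of lipoxygenases and jasmonate synthesis, ZAT-type zinc finger factors, NAC factors, calmodulins and calmodulin-like sensors, MAP kinase cascade, U-box ubiquitin ligases, raffinose and galactinol, trehalose, expansins and xyloglucan enzymes, histones, amino acid transporters and plastid ribosomal proteins changed sign under at least 1 of these scalings. Under these scalings the higher unigenes were 33.0% (577 against 1172 lower) and 35.8% (611 against 1094 lower) of all calls, in place of 45.5%.

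**Figure D1:**
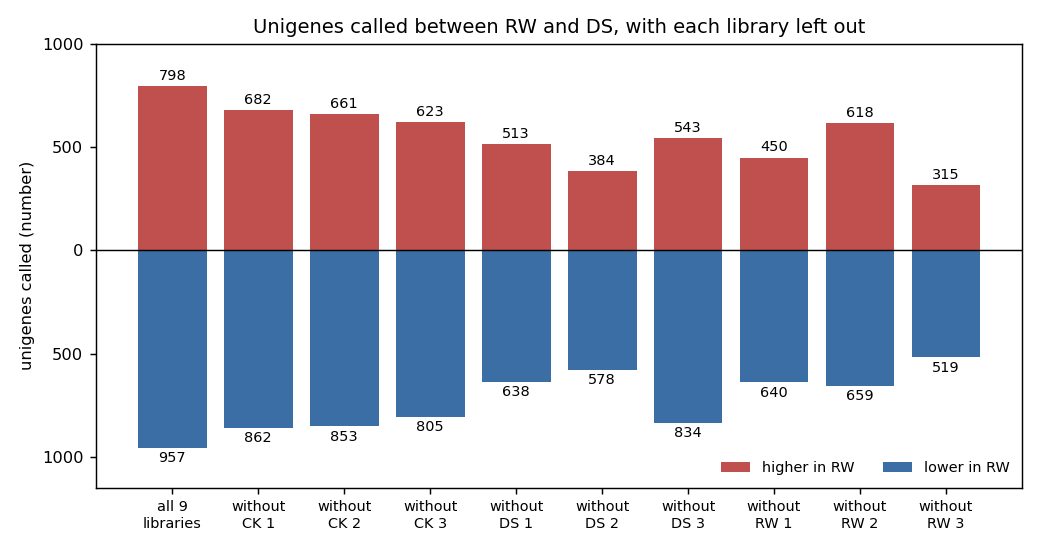
Number of unigenes called higher (upward bars) and lower (downward bars) in RW than in DS with all 9 libraries and with each library left out. The higher calls ranged from 315 without RW 3 to 682 without CK 1 and the lower calls from 519 without RW 3 to 862 without CK 1, against 798 and 957 with all libraries.

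Of the deepest decreases among unigenes with a described protein, ERF109 (TRINITY_DN16242_c0_g1), an ethylene-response factor known in Arabidopsis for its fast induction by reactive oxygen and wounding, stood at 456, 721 and 516 TPM in DS and 0.36, 5.19 and 2.51 TPM in RW. All 3 RW libraries were far below the DS libraries, with RW 1 the lowest, and the CK mean was 0.0533 ± 0.0611 TPM (SD, n = 3). The difference was −7.49 (SE 0.47, adjusted p = 5.33e-05, and −7.99 without RW 2). ERF017 (TRINITY_DN13498_c0_g1) stood at 123, 256 and 174 TPM in DS and 0.31, 0.62 and 0.43 TPM in RW, a difference of −6.94 (SE 0.31, adjusted p = 1.26e-05, and −7.02 without RW 2). A protein ALP1-like unigene (TRINITY_DN17085_c1_g4), named for an Arabidopsis gene that arose from a transposase, stood at 529.7, 680.4 and 551 TPM in DS and 3.92, 5.20 and 2.89 TPM in RW and had the smallest adjusted p of all, with a difference of −6.89 (SE 0.24, adjusted p = 6.27e-06, and −7.06 without RW 2). The groups did not overlap for either, and the nudix hydrolase NUDT18 (TRINITY_DN18666_c0_g2) differed by −6.29 (SE 0.39, adjusted p = 5.30e-05, and −6.15 without RW 2). Others among the 12 deepest decreases in described proteins at 20 TPM or more were the ubiquitin ligase PUB22 (difference −5.96), known in Arabidopsis as a negative regulator of drought and immune responses, a UPF0496 protein (−7.58), and a cysteine-rich TM module stress tolerance protein (−5.53), with adjusted p of 0.000165, 1.86e-05 and 4.86e-05. The ALP1-like unigene (−4.34), the UPF0496 protein (−2.73) and the cysteine-rich TM protein (−2.79) kept the call but moved by over 1.5 times when summed by component. The ALP1-like unigene (−4.31), NUDT18 (−3.48) and the cysteine-rich TM protein (−2.73) kept the call but moved by over 1.5 times when summed by description.

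The steepest rises went to an F-box protein, a universal stress protein and a dormancy marker. The F-box/kelch-repeat unigene (TRINITY_DN24871_c0_g1), under the symbol At1g15670, of an Arabidopsis family that marks phenylalanine ammonia-lyase for breakdown, stood at 1.38, 0.49 and 2.13 TPM in DS and 67.3, 91.6 and 129 TPM in RW. The RW libraries lay far above DS, and the difference was 5.39 (SE 0.55, adjusted p = 0.000786, and 5.40 without RW 2). A universal stress protein unigene (TRINITY_DN16546_c0_g2) stood at 0.54, 0.86 and 1.37 TPM in DS and 44.7, 64.7 and 65.9 TPM in RW, a difference of 4.95 (SE 0.73, adjusted p = 0.00565, and 4.87 without RW 2). DRM1 (TRINITY_DN21447_c0_g1), a dormancy-associated protein whose mRNA marks resting buds, stood at 118, 53.3 and 47.5 TPM in DS and 1790.2, 1115 and 1751 TPM in RW, a difference of 4.48 (SE 0.41, adjusted p = 0.000433, and 4.70 without RW 2). Its RW levels were close to the CK mean of 1458 ± 536 TPM (SD, n = 3). CCD4 (TRINITY_DN21662_c1_g2), which cleaves carotenoids in plastids, stood at 21.3, 8.01 and 20.3 TPM in DS and 189.9, 427 and 195.5 TPM in RW, a difference of 3.96 (SE 0.45, adjusted p = 0.00149, and 3.58 without RW 2). RMA1H1 (TRINITY_DN15171_c0_g1), a membrane-bound ubiquitin ligase whose pepper relative is known to lower aquaporins at the plasma membrane, differed by 3.95 (SE 0.49, adjusted p = 0.00224, and 4.10 without RW 2). Each of these decreases and increases passed the test with any single library left out. Among the 12 steepest rises, taken by the same limits, were also the receptor-like kinases At4g29180 (4.26, lost without DS 2, RW 1 or RW 3) and At2g19230 (3.72, lost without DS 2, DS 3, RW 1 or RW 3) and the photosystem II protein PSBT (3.75, lost without DS 1, DS 2 or RW 3). At4g29180 (2.79) and PSBT (1.51) were no longer called when summed by component, and the universal stress protein (1.58) kept the call but moved by over 1.5 times. At4g29180 (2.85) and PSBT (1.87) were no longer called when summed by description, and the universal stress protein (1.002) and RMA1H1 (1.60) kept the call but moved by over 1.5 times. PSBT (3.75) was no longer called with the 6 DS and RW libraries alone.

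NCED1, CYP707A3 and AOG were the 3 of 24 unigenes of ABA synthesis and breakdown that were lower after rewatering, and 21 were not called. NCED1 (TRINITY_DN24976_c0_g1), the 9-cis-epoxycarotenoid dioxygenase that commits carotenoids to ABA, stood at 135, 210.1 and 101.2 TPM in DS and 12.1, 46.0 and 9.42 TPM in RW. CYP707A3 (TRINITY_DN20125_c1_g1), the 8'-hydroxylase that inactivates ABA, stood at 84.5, 139 and 133 TPM in DS and 2.80, 9.65 and 2.23 TPM in RW. AOG (TRINITY_DN15076_c0_g3), which attaches glucose to ABA, stood at 103, 71.1 and 89.6 TPM in DS and 18.3, 20.3 and 12.5 TPM in RW. For all 3 the RW libraries lay below the DS libraries, RW 2 was the highest of the RW libraries, and the CK means were 7.21 ± 0.859 TPM, 1.56 ± 1.201 TPM and 11.1 ± 6.15 TPM. NCED1 differed by −2.95 (SE 0.51, adjusted p = 0.0126, and −3.61 without RW 2), and its call was lost without DS 2. CYP707A3 differed by −4.53 (SE 0.51, adjusted p = 0.00131, and −5.06 without RW 2), and AOG by −2.31 (SE 0.36, adjusted p = 0.00679, and −2.45 without RW 2). The higher count was 1 without CK 2 or DS 3, in place of 0. The list median of 0.53 [0.30 to 0.53] was above the 0.17 of all unigenes. CYP707A3 (−2.76) kept the call but moved by over 1.5 times when summed by component.

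In the receptor chain, 1 of 16 SnRK2 kinases rose and 1 fell, and 1 of 9 receptors rose and 1 fell. SRK2E (TRINITY_DN19936_c0_g1), the SnRK2 kinase of guard cells known in Arabidopsis as OPEN STOMATA 1, stood at 6.80, 8.03 and 9.21 TPM in DS and 74.5, 87.8 and 93.2 TPM in RW, against 82.1 ± 12.9 TPM in CK. The RW libraries were close together and at the level of CK, and the difference was 3.26 (SE 0.20, adjusted p = 4.87e-05, and 3.23 without RW 2). PYL8 (TRINITY_DN20251_c0_g2), an ABA receptor by its symbol with a hypothetical protein as its description, stood at 2.24, 2.32 and 1.06 TPM in DS and 9.24, 17.8 and 14.8 TPM in RW, a difference of 2.37 (SE 0.37, adjusted p = 0.00769, and 2.18 without RW 2). In the opposite direction, SAPK2 (TRINITY_DN16118_c0_g1), another SnRK2 kinase, stood at 187, 149 and 138 TPM in DS and 27.9, 57.2 and 53.3 TPM in RW and differed by −1.81 (SE 0.31, adjusted p = 0.0129, and −1.99 without RW 2), a call that was lost without DS 1. Of 77 protein phosphatases 2C, 5 were lower and 3 higher (6.49% and 3.9%, beside 2.15% and 1.79% of all unigenes, median 0.18 [0.10 to 0.19]). At2g30020 (TRINITY_DN22423_c0_g2), whose Arabidopsis namesake switches off stress MAP kinases rather than ABA signalling, stood at 409.8, 519 and 331 TPM in DS and 31.2, 41.9 and 26.3 TPM in RW, with no overlap and a difference of −3.63 (SE 0.23, adjusted p = 5.56e-05, and −3.80 without RW 2). At1g48040 (TRINITY_DN17872_c0_g2) and Os01g0295700 (TRINITY_DN17235_c0_g2) differed by −2.80 (SE 0.27, adjusted p = 0.000596, and −3.11 without RW 2) and −2.13 (SE 0.27, adjusted p = 0.00263, and −1.89 without RW 2). The higher phosphatase calls numbered 1 without DS 1, DS 2, RW 2 or RW 3, and the decrease of the receptor PYL4 (−2.72) was lost without CK 2, DS 1, DS 2, RW 2 or RW 3, while 2 receptors were lower without RW 1. PYL8 (0.22), Os01g0295700 (−0.58) and PYL4 (−0.16) were no longer called when summed by component, and SRK2E (2.03) kept the call but moved by over 1.5 times. Os01g0295700 (−0.49) and PYL4 (−2.82) were no longer called when summed by description, and At1g48040 (−1.66) kept the call but moved by over 1.5 times. PYL4 (−2.72) was no longer called with the 6 DS and RW libraries alone. PYL8 (1.44) kept the call but moved by over 1.5 times with a pseudocount of 5. Protein phosphatases 2C had a higher count of 1 with the 6 DS and RW libraries alone or under median-of-ratios scaling and 5 with no minimum fold.

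Of 19 JAZ/TIFY unigenes, 10 were lower and 0 higher (2.15% of all unigenes were lower), and the list median was −1.501 [−1.87 to −1.25]. Without RW 2, 8 were lower with a median of −1.87, and 7 kept the call in all 9 fits with 1 library left out. TIFY10A (TRINITY_DN16559_c0_g6) stood at 1345, 1238 and 867 TPM in DS and 59.4, 51.6 and 44.7 TPM in RW, and TIFY10B (TRINITY_DN21916_c0_g1) at 959, 749 and 786 TPM in DS and 40.9, 39.0 and 34.1 TPM in RW. The RW libraries were close together and below the CK means of 80.2 ± 23.0 TPM and 47.9 ± 14.9 TPM, and the differences were −4.43 (SE 0.26, adjusted p = 4.50e-05, and −4.43 without RW 2) and −4.41 (SE 0.23, adjusted p = 3.01e-05, and −4.43 without RW 2). TIFY11C (TRINITY_DN21916_c0_g2), from the same assembly component as TIFY10B and therefore possibly sharing reads with it, differed by −5.38 (SE 0.36, adjusted p = 7.40e-05, and −5.18 without RW 2). In Arabidopsis the JAZ genes are themselves direct targets of MYC2. MYC2 (TRINITY_DN25988_c1_g1), the main jasmonate transcription factor, stood at 301, 382 and 271 TPM in DS and 21.8, 35.8 and 11.7 TPM in RW. RW lay below DS throughout, with RW 3 lowest, and the difference was −3.84 (SE 0.38, adjusted p = 0.000605, and −4.21 without RW 2). Of 51 synthesis enzymes, 5 were lower and 0 higher (median 0.08 [−0.30 to 0.37]), with lower counts of 2 without DS 1 or RW 3 and 3 without CK 2 or DS 2 and higher counts of 1 without RW 2. AOS1 (TRINITY_DN25247_c0_g1), allene oxide synthase, stood at 47.1, 64.7 and 44.6 TPM in DS and 15.2, 15.4 and 13.0 TPM in RW and OPR3 (TRINITY_DN15677_c0_g1), the peroxisomal 12-oxophytodienoate reductase, at 52.6, 63.0 and 19.5 TPM in DS and 3.58, 1.09 and 1.70 TPM in RW. Neither gene's groups overlapped, and the differences were −1.76 (SE 0.21, adjusted p = 0.00171, and −1.80 without RW 2) and −3.80 (SE 0.46, adjusted p = 0.00195, and −3.55 without RW 2). AOS1 (−0.94) was no longer called when summed by description. Lipoxygenases and jasmonate synthesis had a lower count of 3 with a pseudocount of 0.1.

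**Figure D2:**
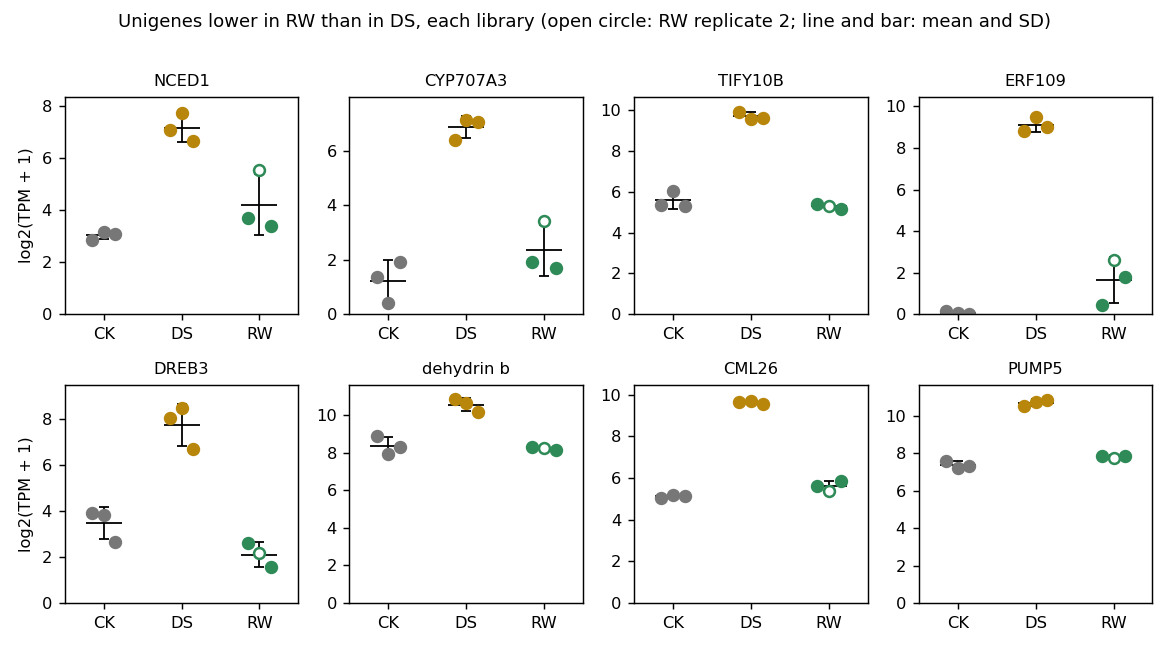
Level of 8 unigenes that were lower in RW, as log2(TPM + 1), in each library of CK, DS and RW, with the mean and SD of each group. All 3 RW points lie below the 3 DS points in each panel, and the open circle of RW replicate 2 is the highest RW point for NCED1 (46.0 TPM), CYP707A3 (9.65 TPM) and ERF109 (5.19 TPM).

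Among 78 ERF factors 20 were lower and 3 higher (median −0.28 [−0.33 to −0.21]), and 11 stayed lower in all 9 fits with 1 library left out. The lower count was 12 without DS 1 and 13 without DS 2, and the higher count 0 without DS 2 or RW 1 and 1 without DS 3 or RW 3. Besides ERF109 and ERF017, ERF026 (TRINITY_DN14389_c0_g4) stood at 51.3, 77.3 and 60.01 TPM in DS and 0.86, 2.04 and 1.43 TPM in RW, a difference of −4.72 (SE 0.29, adjusted p = 5.30e-05, and −4.89 without RW 2). Of 20 DREB/CBF factors, which bind dehydration and cold response elements, 7 were lower and 0 higher (median −0.40 [−0.69 to −0.02]), with lower counts of 3 without DS 3 and 4 without DS 1, DS 2, RW 1 or RW 2 and a higher count of 2 without RW 1. DREB3 (TRINITY_DN12650_c0_g1) stood at 263, 354 and 102 TPM in DS and 5.03, 3.49 and 1.91 TPM in RW and DREB1E (TRINITY_DN13002_c0_g1) at 50.6, 196 and 83.9 TPM in DS and 0.05, 1.74 and 0.57 TPM in RW. Both were separated without overlap despite a wide DS range, with differences of −5.64 (SE 0.50, adjusted p = 0.000367, and −5.67 without RW 2) and −5.85 (SE 0.51, adjusted p = 0.000341, and −6.21 without RW 2). Of 24 ZAT-type zinc finger factors, which respond to salt, cold and oxidative stress, 6 were lower and 0 higher (median 0.01 [−0.08 to 0.19]). ZAT11 (TRINITY_DN22373_c1_g2) stood at 184, 507 and 144 TPM in DS and 5.80, 4.06 and 4.55 TPM in RW, and its DS 2 level was the highest. The difference was −5.37 (SE 0.50, adjusted p = 0.000478, and −5.28 without RW 2), and ZAT6 (TRINITY_DN19592_c0_g1) differed by −3.06 (SE 0.30, adjusted p = 0.000617, and −2.87 without RW 2). ZAT11 (−3.40) kept the call but moved by over 1.5 times when summed by component. DREB1E (−3.27) kept the call but moved by over 1.5 times when summed by description. ERF factors had a lower count of 12 with 1 unigene kept per component. DREB/CBF factors had a lower count of 4 with 1 unigene kept per component.

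NAC002 (TRINITY_DN24616_c0_g1), known in Arabidopsis as ATAF1 and as an ABA-linked regulator of senescence, stood at 541, 475 and 453 TPM in DS and 68.3, 72.4 and 51.5 TPM in RW. DS and RW were each close together, CK averaged 36.7 ± 14.5 TPM, and the difference was −2.92 (SE 0.27, adjusted p = 0.000433, and −3.02 without RW 2). In all, 7 of 62 NAC factors were lower and 0 higher, a lower count of 4 without DS 2 or RW 3 and a higher count of 1 without CK 2, and the list median was 0.01 [−0.02 to 0.12]. Of 72 WRKY factors 6 were lower and 4 higher (median 0.17 [−0.12 to 0.26], lower count 3 without RW 3 and higher count 2 without DS 2, DS 3, RW 1 or RW 3). WRKY53 (TRINITY_DN22281_c0_g1), described as a related WRKY factor and named for a promoter of leaf senescence in Arabidopsis, stood at 295, 483 and 327 TPM in DS and 24.4, 19.4 and 15.2 TPM in RW, and WRKY40 (TRINITY_DN15305_c0_g1), a repressor of ABA-responsive genes there, at 239, 224 and 187 TPM in DS and 16.5, 6.35 and 8.04 TPM in RW. All RW values were below DS, with differences of −4.15 (SE 0.30, adjusted p = 0.000122, and −4.15 without RW 2) and −4.36 (SE 0.38, adjusted p = 0.000341, and −4.11 without RW 2). WRKY69 (TRINITY_DN20789_c0_g3) went the other way, at 8.77, 4.72 and 6.09 TPM in DS and 30.2, 28.8 and 45.5 TPM in RW and a difference of 2.26 (SE 0.27, adjusted p = 0.00176, and 2.38 without RW 2). Of 127 MYB factors, 7 were lower and 2 higher (5.51% and 1.57%, beside 2.15% and 1.79% of all unigenes, median 0.21 [0.15 to 0.25], lower count 4 without DS 2 or RW 3 and higher count 4 without DS 3). MYB44 (TRINITY_DN13949_c0_g3), named for a factor that in Arabidopsis promotes ABA-driven stomatal closure, differed by −4.06 (SE 0.31, adjusted p = 0.000165, and −3.98 without RW 2), and a KUA1 unigene (TRINITY_DN21213_c0_g1), named for a factor that promotes leaf cell expansion in Arabidopsis, by 1.80 (SE 0.27, adjusted p = 0.00597, and 1.65 without RW 2). Of 122 bHLH factors, 12 were lower and 6 higher (median −0.04 [−0.04 to 0.03]), and the higher count in particular rested on single libraries, being 0 without DS 1 or DS 2, 1 without RW 3, 2 without RW 1 or RW 2 and 3 without CK 1 or DS 3, with lower counts of 6 without RW 3 and 7 without DS 1 or DS 2. Next to MYC2, BHLH112 (TRINITY_DN23696_c0_g1) differed by −2.09 (SE 0.23, adjusted p = 0.00114, and −2.20 without RW 2) and BHLH13 (TRINITY_DN17078_c0_g4), a jasmonate repressor in Arabidopsis, by −2.86 (SE 0.40, adjusted p = 0.00405, and −2.99 without RW 2). BHLH13 (−0.96) was no longer called when summed by component, and WRKY40 (−2.72) and WRKY69 (1.201) kept the call but moved by over 1.5 times. WRKY53 (−2.68) kept the call but moved by over 1.5 times when summed by description. NAC factors had a lower count of 4 with 1 unigene kept per component. WRKY factors had a higher count of 2 with a pseudocount of 5. bHLH factors had a higher count of 2 with the 6 DS and RW libraries alone or under median-of-ratios scaling or under quantile normalization.

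**Figure D3:**
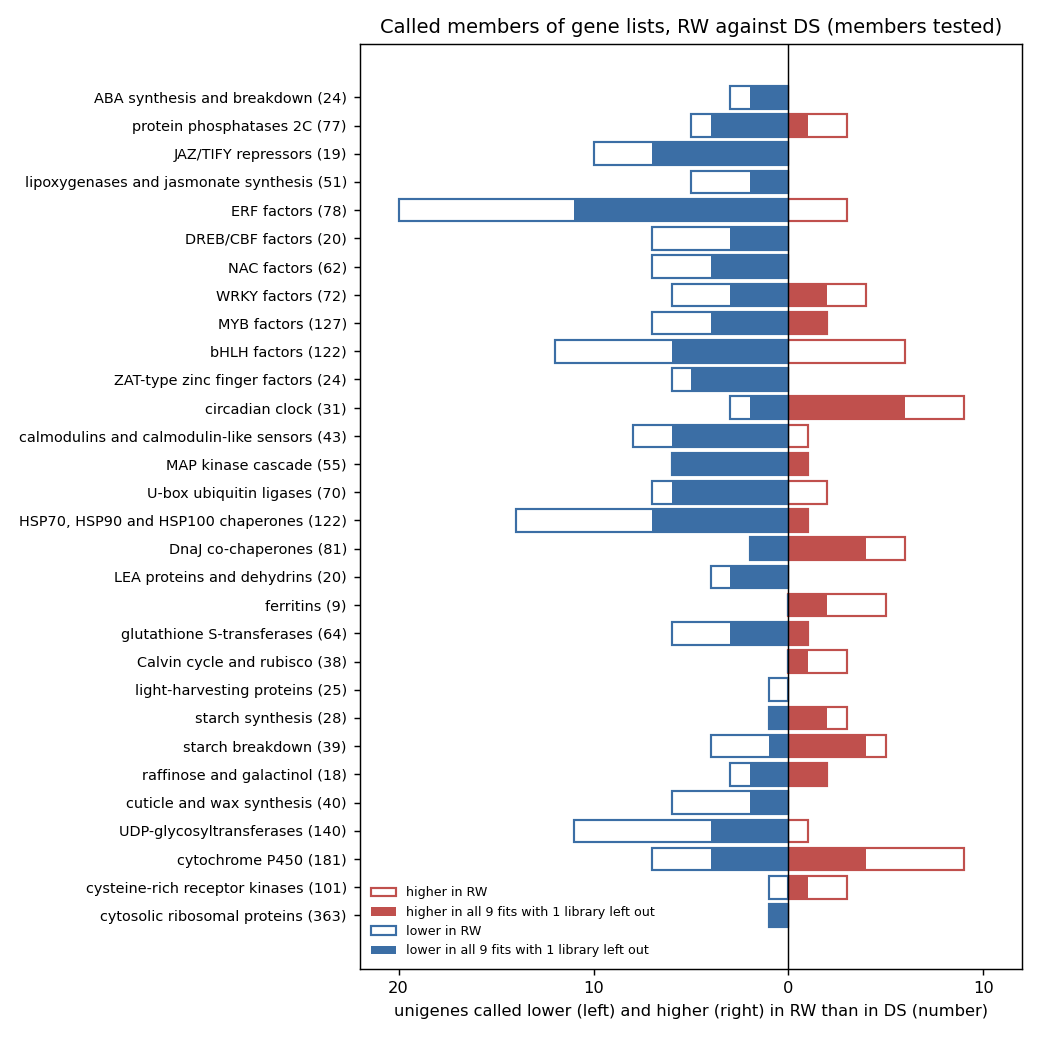
Unigenes called lower (left) and higher (right) in RW than in DS in 30 gene lists, with the number tested in brackets; the filled part of a bar holds the unigenes called in all 9 fits with 1 library left out. The bars of ERF factors (20 lower, 3 higher) and JAZ/TIFY repressors (10 lower, 0 higher) extend to the left, and that of the circadian clock (9 higher, 3 lower) to the right.

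Of 43 calmodulins and calmodulin-like sensors, 8 were lower and 1 higher (median 0.10 [−0.07 to 0.24]), and 6 stayed lower in all 9 fits with 1 library left out. The higher count was 0 without DS 2, RW 1 or RW 3, 2 without DS 3 and 3 without RW 2. CML26 (TRINITY_DN15784_c2_g2), a calcium sensor by its symbol although its description is a hypothetical protein, stood at 802, 844 and 756 TPM in DS and 48.6, 41.2 and 57.2 TPM in RW. Both groups were close together and far apart from each other, and the difference was −4.01 (SE 0.18, adjusted p = 1.26e-05, and −3.90 without RW 2). CML24 (TRINITY_DN21541_c0_g2) stood at 1040.3, 1280.1 and 1571 TPM in DS and 185, 124 and 141 TPM in RW, without overlap, and differed by −3.10 (SE 0.31, adjusted p = 0.000702, and −2.97 without RW 2). Of 55 MAP kinase cascade members, 6 were lower and 1 higher (median 0.07 [−0.05 to 0.15]), and all 7 were called in all 9 fits with 1 library left out. MPK3 (TRINITY_DN20652_c0_g2), a MAP kinase of stress and immune responses, stood at 169, 286 and 263 TPM in DS and 67.8, 35.5 and 57.4 TPM in RW, a difference of −2.15 (SE 0.30, adjusted p = 0.00401, and −1.88 without RW 2). MEKK1 by symbol (TRINITY_DN23435_c0_g1), described as another kinase from the head of the cascade, stood at 173, 491 and 72.3 TPM in DS and 3.36, 14.1 and 2.51 TPM in RW. DS varied widely, RW 2 was the highest RW library, and the difference was −4.91 (SE 0.70, adjusted p = 0.00490, and −5.56 without RW 2). NTF3 (TRINITY_DN20803_c0_g1), a MAP kinase named after a tobacco gene, rose, at 16.1, 13.1 and 13.4 TPM in DS and 40.3, 44.1 and 46.1 TPM in RW and a difference of 1.55 (SE 0.17, adjusted p = 0.00104, and 1.54 without RW 2). Of 70 U-box ubiquitin ligases, 7 were lower and 2 higher (median 0.02 [−0.0041 to 0.05], higher count 0 without RW 3 and 1 without DS 1, DS 2, DS 3, RW 1 or RW 2). PUB21 (TRINITY_DN15238_c0_g1) stood at 451, 647 and 273 TPM in DS and 10.3, 9.50 and 7.19 TPM in RW, all RW values far below DS and above the CK mean of 5.65 ± 1.84 TPM, with a difference of −5.44 (SE 0.33, adjusted p = 4.87e-05, and −5.49 without RW 2). The CBL-interacting kinase CIPK12 (TRINITY_DN18216_c0_g4) differed by −1.67 (SE 0.23, adjusted p = 0.00418, and −1.56 without RW 2). Of 76 calcium-dependent and CBL-interacting kinases 5 were lower and 2 higher (6.58% and 2.63%, beside 2.15% and 1.79% of all unigenes, median −0.07 [−0.10 to 0.04]). The lower count was 2 without DS 1, 3 without RW 3 and 8 under median-of-ratios scaling. The higher count was 0 without DS 2 or RW 3 and 1 without DS 3, RW 1 or RW 2.

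Of 20 LEA proteins and dehydrins, which shield membranes and proteins in dry cells, 4 were lower and 0 higher (median −0.12 [−0.33 to −0.07]). Dehydrin b (TRINITY_DN19327_c0_g1) stood at 1844, 1607 and 1169 TPM in DS and 320.3, 303 and 281 TPM in RW and dehydrin HIRD11 (TRINITY_DN17256_c0_g3) at 1368, 1053 and 1122 TPM in DS and 311, 389.6 and 276 TPM in RW. The RW libraries were close to the CK means of 345 ± 119.5 TPM and 316 ± 68.8 TPM and well below DS, with differences of −2.33 (SE 0.27, adjusted p = 0.00172, and −2.33 without RW 2) and −1.86 (SE 0.23, adjusted p = 0.00244, and −2.0 without RW 2). The dehydrin ERD14 (TRINITY_DN19327_c0_g2), from the same assembly component as dehydrin b, differed by −2.20 (SE 0.31, adjusted p = 0.00416, and −2.12 without RW 2). PUMP5 (TRINITY_DN21990_c1_g1), a mitochondrial uncoupling protein that limits superoxide formation, stood at 1465, 1738 and 1884 TPM in DS and 230.5, 218 and 234 TPM in RW. No RW library came near the DS range, and the difference was −2.88 (SE 0.19, adjusted p = 5.56e-05, and −2.85 without RW 2). Of 122 HSP70, HSP90 and HSP100 chaperones, 14 were lower and 1 higher (median −0.06 [−0.17 to 0.0087]), with lower counts of 7 without RW 3, 8 without DS 1 or DS 2 and 9 without RW 2 and a higher count of 2 without CK 2. HSC-2 (TRINITY_DN15962_c0_g2), an HSP70 by its description, stood at 1493, 1353 and 1148 TPM in DS and 479, 244 and 342 TPM in RW, a difference of −1.95 (SE 0.26, adjusted p = 0.00342, and −1.71 without RW 2). Members of this family are alike in sequence, so reads may be split between unigenes. MED37F (TRINITY_DN25972_c0_g3), also an HSP70 by description, rose by 2.25 (SE 0.38, adjusted p = 0.0119, and 2.01 without RW 2). The heat stress factor HSFA3 (TRINITY_DN21677_c0_g2), which in Arabidopsis is a target of DREB2A in drought, was higher in RW, at 2.10, 2.05 and 1.31 TPM in DS and 12.3, 18.1 and 20.7 TPM in RW. All RW values were above DS, the difference was 2.66 (SE 0.26, adjusted p = 0.000596, and 2.60 without RW 2), and a second HSFA3 unigene of the same component (TRINITY_DN21677_c0_g1) differed by 2.24 (SE 0.34, adjusted p = 0.00613, and 1.97 without RW 2). Dehydrin HIRD11 (−1.04) and MED37F (0.54) were no longer called when summed by component. MED37F (0.21) was no longer called when summed by description, and the HSFA3 unigene TRINITY_DN21677_c0_g1 (1.42) kept the call but moved by over 1.5 times. MED37F (1.14) was no longer called with a pseudocount of 5, and the HSFA3 unigene TRINITY_DN21677_c0_g2 (1.68) and the HSFA3 unigene TRINITY_DN21677_c0_g1 (1.48) kept the call but moved by over 1.5 times. HSP70, HSP90 and HSP100 chaperones had a lower count of 9 with 1 unigene kept per component.

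Among DnaJ co-chaperones, the partners of HSP70, 6 of 81 were higher and 2 lower (7.41% and 2.47%, beside 1.79% and 2.15% of all unigenes, median 0.19 [0.02 to 0.25]). The plastid DnaJ ATJ11 (TRINITY_DN13948_c0_g1) stood at 1.49, 1.24 and 1.17 TPM in DS and 49.9, 12.8 and 65.7 TPM in RW, and RW 2 was the lowest of the RW libraries. Its difference was 3.97 (SE 0.66, adjusted p = 0.0105, and 4.67 without RW 2), and that of a DnaJ-class chaperone (TRINITY_DN13062_c0_g1) −2.03 (SE 0.23, adjusted p = 0.00140, and −1.89 without RW 2). Ferritins are plastid shells that store iron and keep it from feeding oxidative damage. Of 9 unigenes, 5 were higher and 0 lower (1.79% of all unigenes were higher), and the median was 2.83 [2.17 to 3.34]. PFE2 (TRINITY_DN22246_c0_g1) stood at 154, 209 and 80.5 TPM in DS and 922, 935 and 1111 TPM in RW, and a second ferritin (TRINITY_DN23595_c0_g1) at 21.2, 77.5 and 20.9 TPM in DS and 1077, 709 and 457 TPM in RW. RW lay above DS in both, and also above the CK means of 580.1 ± 248 TPM and 88.1 ± 61.7 TPM. The differences were 2.83 (SE 0.38, adjusted p = 0.00328, and 2.87 without RW 2) and 4.39 (SE 0.63, adjusted p = 0.00497, and 4.38 without RW 2), and both calls held with any single library left out. The higher count was 2 without DS 1, DS 3, RW 1 or RW 3 and 3 without RW 2 and the lower count 1 without RW 3, and ferritin unigenes of 1 component may share reads. Of 64 glutathione S-transferases, which conjugate toxic compounds, 6 were lower and 1 higher (median −0.02 [−0.19 to 0.01], lower count 3 without DS 1, DS 2, RW 1 or RW 2). HSP26-A (TRINITY_DN17375_c0_g6), which carries the symbol of a soybean transferase and no described protein, stood at 1092, 519 and 949.6 TPM in DS and 68.0, 44.2 and 23.2 TPM in RW. The RW libraries were below DS and also below the CK mean of 139 ± 105 TPM, and the difference was −4.27 (SE 0.58, adjusted p = 0.00370, and −4.32 without RW 2). GSTU18 (TRINITY_DN20248_c0_g1) rose by 1.49 (SE 0.24, adjusted p = 0.00898, and 1.54 without RW 2). VTC2 (TRINITY_DN23107_c0_g2), the enzyme that commits sugars to vitamin C, stood at 1609, 1606 and 1600.2 TPM in DS and 706, 471 and 752 TPM in RW. The DS values were nearly equal, RW 2 was the lowest library, and the difference was −1.35 (SE 0.23, adjusted p = 0.0119, and −1.14 without RW 2). Proline dehydrogenase POX1 (TRINITY_DN20517_c0_g4), which breaks down the osmolyte proline, was lower too, at 35.1, 38.6 and 21.4 TPM in DS and 3.81, 1.32 and 1.55 TPM in RW and a difference of −3.38 (SE 0.41, adjusted p = 0.00208, and −3.18 without RW 2). Of 17 proline metabolism unigenes 1 was lower and 0 higher (median 0.21 [0.04 to 0.30]). The lower count was 2 without CK 2 and the higher count 1 without RW 1. ATJ11 (2.08) and HSP26-A (−0.26) were no longer called when summed by description. Ferritins had a higher count of 3 with 1 unigene kept per component.

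Of 31 circadian clock unigenes, 9 were higher, 3 lower and 19 not called (against 1.79% higher and 2.15% lower of all unigenes), with 8 and 2 called without RW 2 and 6 and 2 in all 9 fits with 1 library left out, and the list median was 0.19 [0.08 to 0.34]. The members are named here after their values were seen. LHY (TRINITY_DN25317_c1_g1), the dawn factor of the clock, stood at 322, 313 and 432 TPM in DS and 56.9, 55.9 and 54.9 TPM in RW. REVEILLE 8 (TRINITY_DN20351_c0_g1), a morning activator related to LHY, stood at 182, 222 and 178 TPM in DS and 39.8, 43.3 and 42.0 TPM in RW. The groups did not overlap, with differences of −2.63 (SE 0.22, adjusted p = 0.000276, and −2.63 without RW 2) and −2.19 (SE 0.25, adjusted p = 0.00140, and −2.21 without RW 2). APRR5, PRR37 and APRR1 encode pseudo-response regulators, which repress LHY in turn through the day. APRR5 (TRINITY_DN22738_c0_g1), described as a close relative, stood at 11.5, 5.33 and 7.98 TPM in DS and 54.6, 116 and 74.0 TPM in RW, PRR37 (TRINITY_DN25771_c0_g1) at 33.6, 23.8 and 19.1 TPM in DS and 77.2, 104 and 111 TPM in RW, and the evening regulator APRR1 (TRINITY_DN25585_c1_g2), known as TOC1, at 0.93, 0.89 and 1.34 TPM in DS and 9.04, 21.8 and 9.01 TPM in RW. RW lay above DS for each, with RW 2 highest for APRR5 and APRR1, and the differences were 3.14 (SE 0.32, adjusted p = 0.000855, and 2.85 without RW 2), 1.92 (SE 0.25, adjusted p = 0.00328, and 1.86 without RW 2) and 2.69 (SE 0.36, adjusted p = 0.00339, and 2.29 without RW 2). ELF4 and ELF3 belong to the evening complex of the clock. ELF4 (TRINITY_DN15036_c0_g1) stood at 9.92, 8.14 and 4.10 TPM in DS and 46.3, 82.7 and 45.3 TPM in RW and ELF3 (TRINITY_DN21601_c0_g1) at 5.69, 5.40 and 4.00 TPM in DS and 14.8, 16.2 and 13.3 TPM in RW, with differences of 2.83 (SE 0.41, adjusted p = 0.00526, and 2.55 without RW 2) and 1.396 (SE 0.21, adjusted p = 0.00560, and 1.33 without RW 2). ADO3 (TRINITY_DN21252_c0_g1), the blue-light receptor FKF1 of the photoperiod pathway, differed by 3.11 (SE 0.40, adjusted p = 0.00277, and 2.92 without RW 2). A second APRR1 unigene, APRR7, LNK3 and GIGANTEA were called with all libraries at 2.11, 1.303, −2.10 and 1.22, but those calls were lost without any 1 of DS 1, DS 2 or DS 3 for APRR1, DS 2, RW 1 or RW 3 for APRR7, DS 1, DS 2, DS 3, RW 1, RW 2 or RW 3 for LNK3, and CK 2, CK 3, DS 2, DS 3, RW 1, RW 2 or RW 3 for GIGANTEA. The CK means, taken on the day of the DS harvest, were 33.0 ± 8.20 TPM for LHY and 56.8 ± 9.22 TPM for APRR5, closer to RW than to DS. Since the hour of harvest is not given, its part in these differences was not tested. LHY (−0.79) was no longer called when summed by component. The second APRR1 (2.11) and GIGANTEA (1.22) were no longer called with the 6 DS and RW libraries alone. ELF3 (0.98) was no longer called with a pseudocount of 5, and the APRR1 unigene TRINITY_DN25585_c1_g2 (1.52) and the second APRR1 (1.25) kept the call but moved by over 1.5 times. GIGANTEA (1.06) was no longer called under median-of-ratios scaling. LNK3 (−2.02) was no longer called under quantile normalization.

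**Figure D4:**
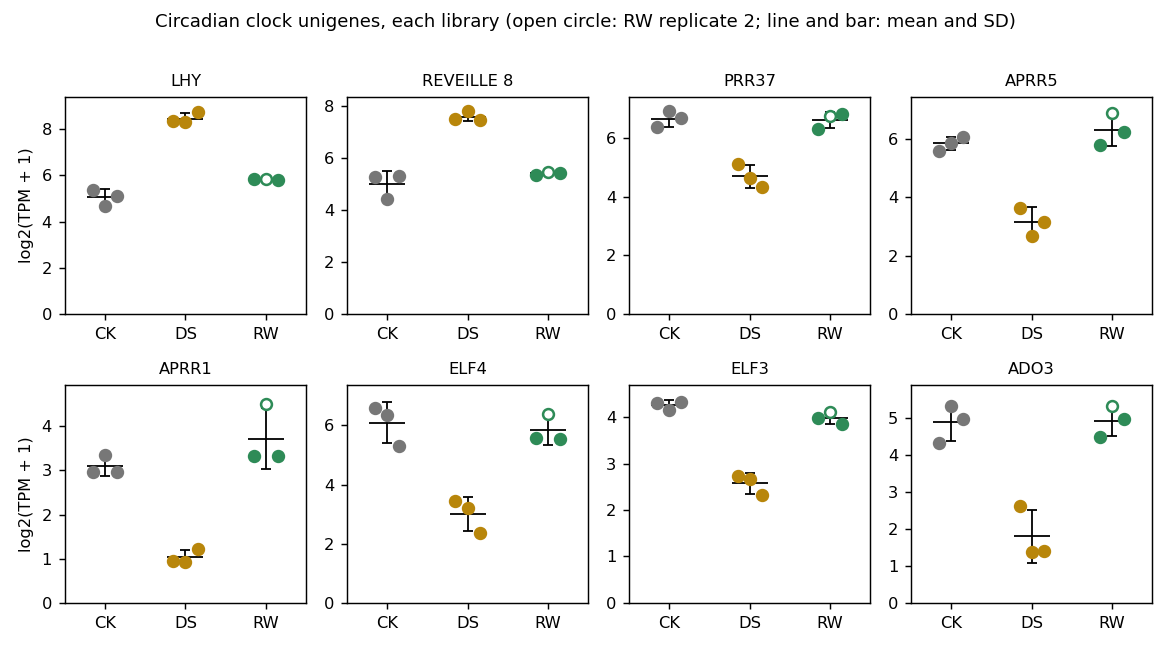
Level of 8 circadian clock unigenes as log2(TPM + 1) in each library of CK, DS and RW, with the mean and SD of each group. LHY and REVEILLE 8 are highest in DS (313 to 432 TPM and 178 to 222 TPM), while the other 6 are lowest there, and the RW means lie closer to CK than to DS.

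Of 28 B-box and CONSTANS-like factors, many of which respond to light, 3 were lower, 2 higher and 23 not called (median 0.41 [0.16 to 0.42]), the higher count being 1 without RW 1 or RW 3. BBX24 (TRINITY_DN16110_c1_g1), named for a repressor of light responses in Arabidopsis, stood at 1306, 1170.3 and 1132 TPM in DS and 138, 167 and 230.4 TPM in RW, and BBX25 (TRINITY_DN21502_c0_g4) at 537, 492 and 521 TPM in DS and 60.8, 142 and 105 TPM in RW. CONSTANS-LIKE 9 (TRINITY_DN24123_c0_g1), which delays flowering in Arabidopsis, stood at 4.79, 5.82 and 3.31 TPM in DS and 22.1, 50.4 and 34.7 TPM in RW. BBX24 and BBX25 were lower without overlap, with differences of −2.78 (SE 0.29, adjusted p = 0.000938, and −2.74 without RW 2) and −2.402 (SE 0.33, adjusted p = 0.00403, and −2.67 without RW 2), and COL9 rose by 2.65 (SE 0.36, adjusted p = 0.00368, and 2.37 without RW 2).

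Of 25 light-harvesting proteins 0 were higher and 1 lower (median 0.40 [0.07 to 0.68]), of 37 photosystem subunits 1 was higher (median 0.46 [0.19 to 0.79]), and of 38 Calvin cycle and rubisco members 3 were higher (median 0.20 [0.17 to 0.35]), beside 1.79% higher, 2.15% lower and a median of 0.17 over all unigenes. The light-harvesting lower count was 0 without CK 2, CK 3, DS 1, DS 2, RW 1, RW 2 or RW 3 and its higher count 1 without DS 3, the photosystem count was 0 without DS 1, DS 2 or RW 3, and the Calvin cycle count was 1 without DS 1, DS 2, RW 1 or RW 2. CP12-2 (TRINITY_DN21723_c1_g3), a small protein that holds Calvin cycle enzymes in an inactive complex in the dark, stood at 255, 163 and 238 TPM in DS and 474, 613 and 474 TPM in RW. RW lay above DS with no overlap and below the CK mean of 654 ± 69.4 TPM, and the difference was 1.26 (SE 0.22, adjusted p = 0.0147, and 1.14 without RW 2). Protochlorophyllide reductase, under the symbol 3PCR (TRINITY_DN21469_c2_g2), the light-driven step of chlorophyll synthesis, stood at 58.9, 28.0 and 78.6 TPM in DS and 328, 323 and 290.0 TPM in RW. The RW values were close together, and the difference was 2.60 (SE 0.36, adjusted p = 0.00398, and 2.58 without RW 2). It was the only one of 35 chlorophyll synthesis unigenes called with all libraries, where the median was 0.31 [0.23 to 0.36], and the lower count was 1 without RW 2. CP12-2 (0.35) was no longer called when summed by component. CP12-2 (0.82) was no longer called when summed by description. Calvin cycle and rubisco had a higher count of 1 under median-of-ratios scaling.

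Of 28 starch synthesis unigenes 3 were higher and 1 lower (10.7% and 3.57%, beside 1.79% and 2.15% of all unigenes, median 0.55 [0.33 to 0.69]), and of 39 for starch breakdown 5 were higher and 4 lower (12.8% and 10.3%, median 0.52 [0.40 to 0.62], lower count 1 without DS 3 or RW 1 and 2 without CK 2, CK 3, DS 1 or RW 3). Starch synthase 3 (TRINITY_DN14902_c0_g1) stood at 19.4, 17.3 and 13.8 TPM in DS and 49.5, 47.4 and 48.8 TPM in RW, and each group was close together, with a difference of 1.49 (SE 0.19, adjusted p = 0.00232, and 1.502 without RW 2). Granule-bound starch synthase 2 (TRINITY_DN24775_c0_g1), which makes amylose, stood at 252, 229 and 91.6 TPM in DS and 26.3, 39.0 and 33.6 TPM in RW and fell by 2.39 (SE 0.37, adjusted p = 0.00721, and −2.51 without RW 2). DPE2 (TRINITY_DN23333_c0_g1), the cytosolic enzyme that acts on maltose, stood at 25.8, 17.6 and 20.4 TPM in DS and 52.6, 118 and 81.8 TPM in RW. An alpha-glucan phosphorylase (TRINITY_DN25903_c1_g1) stood at 20.3, 11.6 and 21.6 TPM in DS and 87.5, 489 and 159.7 TPM in RW. RW 2 was the highest library for both, and the differences were 1.88 (SE 0.28, adjusted p = 0.00604, and 1.60 without RW 2) and 3.39 (SE 0.53, adjusted p = 0.00746, and 2.71 without RW 2). Inactive beta-amylase 9, BAM9 (TRINITY_DN24141_c1_g1), stood at 103, 118 and 163 TPM in DS and 25.8, 25.9 and 25.1 TPM in RW and fell by 2.25 (SE 0.22, adjusted p = 0.000631, and −2.26 without RW 2). Of 18 unigenes of the raffinose family, osmoprotectant sugars made from galactinol, 3 were lower and 2 higher (median 0.14 [−0.05 to 0.37]). RFS (TRINITY_DN24926_c0_g2), described as galactinol-sucrose galactosyltransferase, stood at 23.3, 27.7 and 23.8 TPM in DS and 6.62, 2.36 and 3.55 TPM in RW, and RFS1 (TRINITY_DN21971_c0_g1), described as galactinol-raffinose galactosyltransferase, at 4.73, 2.12 and 1.91 TPM in DS and 16.6, 31.7 and 26.7 TPM in RW. The groups lay apart in both, with differences of −2.404 (SE 0.32, adjusted p = 0.00333, and −2.13 without RW 2) and 2.75 (SE 0.34, adjusted p = 0.00209, and 2.56 without RW 2). The sugar transporter SWEET2 (TRINITY_DN14733_c0_g3), of the vacuole in Arabidopsis, differed by −2.60 (SE 0.33, adjusted p = 0.00283, and −2.58 without RW 2), and the trehalose-phosphate phosphatase TPPA (TRINITY_DN21836_c0_g1) by −1.95 (SE 0.32, adjusted p = 0.00906, and −1.91 without RW 2). Of 79 sucrose, invertase and sugar transport unigenes 3 were higher and 2 lower (3.8% and 2.53%, median 0.28 [0.16 to 0.40]). The higher count was 0 without DS 2 or RW 3 and 1 without DS 1 or RW 1, and the lower count 1 without any 1 of these. Of 18 trehalose unigenes 1 was higher and 2 lower (5.56% and 11.1%, median 0.17 [0.08 to 0.23]). The higher count was 0 without DS 1, DS 2, DS 3, RW 1 or RW 3, and the lower count 1 without DS 1, DS 3, RW 1, RW 2 or RW 3. RFS1 (1.03) was no longer called when summed by component, and DPE2 (1.19) kept the call but moved by over 1.5 times. RFS (−1.44) kept the call but moved by over 1.5 times when summed by description. Starch breakdown had a lower count of 1 with the 6 DS and RW libraries alone, 2 under quantile normalization and 7 with library weights. The sucrose, invertase and sugar transport list had a higher count of 0 with the 6 DS and RW libraries alone and 1 under median-of-ratios scaling. Raffinose and galactinol had a lower count of 1 with 1 unigene kept per component.

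**Figure D5:**
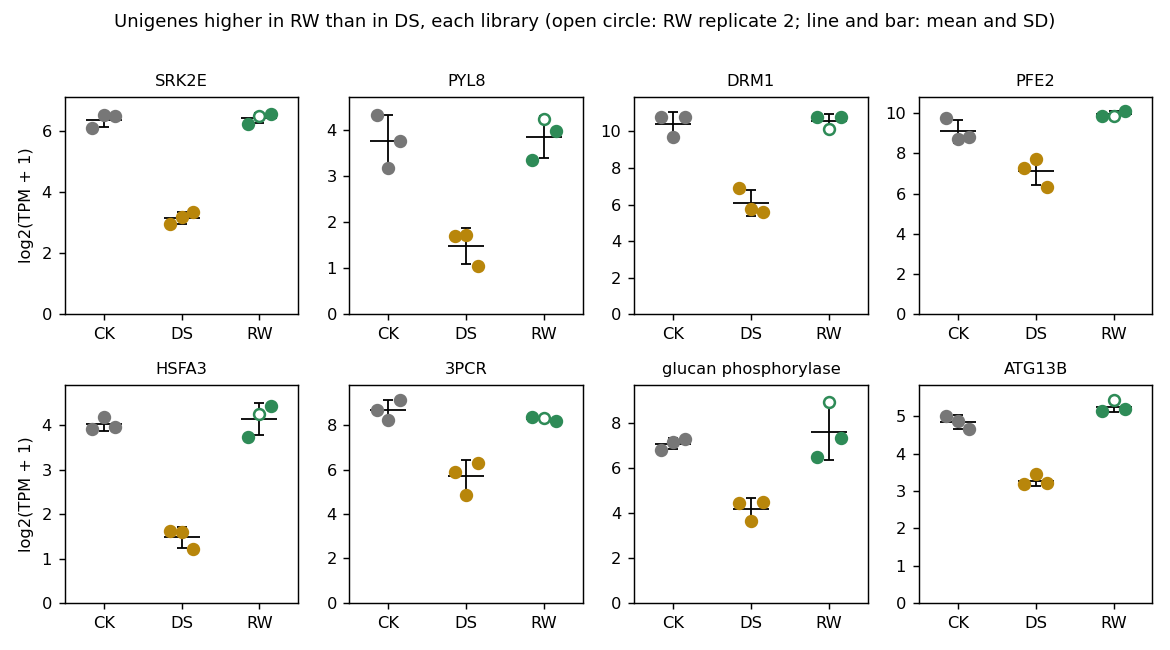
Level of 8 unigenes that were higher in RW, as log2(TPM + 1), in each library of CK, DS and RW, with the mean and SD of each group. All 3 RW points lie above the 3 DS points in each panel, and RW replicate 2 (open circle) stands out for the alpha-glucan phosphorylase, at 489 TPM against 87.5 and 159.7 TPM in RW replicates 1 and 3.

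Of 40 cuticle and wax unigenes 6 were lower and 0 higher (median −0.35 [−0.38 to −0.14], lower count 3 without RW 2 or RW 3). KCS2 (TRINITY_DN19258_c0_g1), a 3-ketoacyl-CoA synthase, of the enzymes that make very long fatty acids, stood at 240.5, 169 and 116 TPM in DS and 36.6, 25.1 and 37.9 TPM in RW. Its RW libraries were below both DS and the CK mean of 63.6 ± 6.27 TPM, and it differed by −2.33 (SE 0.28, adjusted p = 0.00181, and −2.14 without RW 2), while KCS20 (TRINITY_DN18860_c1_g2) differed by −2.34 (SE 0.30, adjusted p = 0.00305, and −2.09 without RW 2). The xyloglucan endotransglucosylase XTH6, which remodels the cell wall, (TRINITY_DN19618_c0_g2) stood at 687, 591 and 669 TPM in DS and 185, 122 and 167 TPM in RW, against 377 ± 65.2 TPM in CK. The groups lay apart, and the difference was −2.05 (SE 0.22, adjusted p = 0.00107, and −1.88 without RW 2). XTH23 (TRINITY_DN19088_c1_g2) differed by −3.45 (SE 0.32, adjusted p = 0.000478, and −3.18 without RW 2). Of 46 expansins and xyloglucan enzymes 5 were lower and 1 higher (median 0.03 [−0.26 to 0.17]), a lower count of 2 without DS 1 and 3 without DS 2, DS 3, RW 1, RW 2 or RW 3, and the higher call was lost without any single library other than RW 2. Of 125 pectin-modifying enzymes 2 were higher and 2 lower (1.60% each way, beside 1.79% and 2.15% of all unigenes, median 0.22 [−0.03 to 0.36]), with 0 higher if RW 1 or RW 3 was left out, 1 if it was CK 1, CK 3, DS 1 or DS 3, 0 lower if it was DS 1, DS 2, RW 2 or RW 3, and 1 if it was CK 2 or CK 3. Of 76 secondary wall cellulose synthases and laccases 0 were called (median 0.82 [0.36 to 1.11]), with a lower count of 1 without CK 2 or CK 3 and 11 higher and 5 lower at an unadjusted p under 0.05 in limma with the same minimum fold, where all unigenes gave 3150 and 2204 of 44538. Of 57 lignin and phenylpropanoid entry unigenes 4 were lower and 2 higher (7.02% and 3.51%, beside 2.15% and 1.79% of all unigenes, median −0.09 [−0.48 to −0.03], higher count 1 without CK 1, CK 2, CK 3, DS 1, DS 3, RW 2 or RW 3). Cinnamate 4-hydroxylase CYP73A3 (TRINITY_DN24106_c1_g2) stood at 256, 215 and 203 TPM in DS and 65.1, 41.9 and 43.0 TPM in RW and fell by 2.17 (SE 0.31, adjusted p = 0.00472, and −2.06 without RW 2). Cinnamoyl-CoA reductase CCR2 (TRINITY_DN14352_c0_g3) fell by 2.04 (SE 0.35, adjusted p = 0.0117, and −2.004 without RW 2). Among 110 auxin response unigenes 3 were higher and 3 lower (2.73% each way, beside 1.79% and 2.15% of all unigenes, median 0.16 [−0.00058 to 0.37], higher count 1 without RW 3 and lower count 1 without DS 1, RW 2 or RW 3), with SAUR32 (TRINITY_DN14463_c0_g1) higher by 2.20 (SE 0.26, adjusted p = 0.00162, and 2.09 without RW 2) and another SAUR-like unigene (TRINITY_DN16689_c0_g5) that fell by 3.41 (SE 0.45, adjusted p = 0.00309, and −3.57 without RW 2). Histone H2A.1 (TRINITY_DN14116_c0_g2) was higher, at 27.8, 27.4 and 40.1 TPM in DS and 79.6, 99.98 and 81.7 TPM in RW and a difference of 1.44 (SE 0.21, adjusted p = 0.00515, and 1.34 without RW 2). Of 86 histones it alone was higher and 1 was lower (1.16% each way, beside 1.79% and 2.15% of all unigenes, median 0.03 [−0.22 to 0.30]). The lower count was 0 without DS 1, DS 3, RW 1, RW 2 or RW 3. All 101 histone unigenes, tested or not, summed to 5691 to 6678 TPM in DS and 5598 to 6458 TPM in RW. CCR2 (−0.96) was no longer called when summed by component, and KCS20 (−1.25) and the other SAUR-like unigene (−1.89) kept the call but moved by over 1.5 times. XTH23 (−0.998), SAUR32 (0.21) and the other SAUR-like unigene (−0.29) were no longer called when summed by description. Cuticle and wax synthesis had a lower count of 3 with the 6 DS and RW libraries alone. Expansins and xyloglucan enzymes had a lower count of 3 with the 6 DS and RW libraries alone or with a pseudocount of 0.1. Aux/IAA, SAUR and GH3 auxin response had a lower count of 1 with the 6 DS and RW libraries alone.

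ATG13B (TRINITY_DN24696_c0_g1), a subunit of the kinase that starts autophagy, stood at 8.07, 9.91 and 8.20 TPM in DS and 34.4, 42.3 and 35.6 TPM in RW. RW was above DS without overlap, and the difference was 1.98 (SE 0.19, adjusted p = 0.000506, and 1.89 without RW 2). Of 31 autophagy unigenes 3 were higher and 0 lower (9.68% higher, beside 1.79% of all unigenes, median 0.45 [0.39 to 0.45]), with a higher count of 1 without DS 2 or RW 3. MCCA (TRINITY_DN24786_c1_g1), the alpha subunit of methylcrotonoyl-CoA carboxylase in leucine breakdown, stood at 8.71, 10.8 and 7.70 TPM in DS and 37.7, 45.2 and 32.3 TPM in RW, a difference of 1.97 (SE 0.26, adjusted p = 0.00339, and 1.85 without RW 2). The vacuolar amino acid transporter SLC36A1 (TRINITY_DN17588_c0_g2), AVT1I by description, stood at 324, 253 and 66.7 TPM in DS and 6.53, 10.8 and 6.14 TPM in RW and fell by 4.37 (SE 0.53, adjusted p = 0.00193, and −4.60 without RW 2). DS 3 was far below the other DS libraries, yet above every RW library. The permease AAP5 (TRINITY_DN12851_c1_g2) rose by 1.59 (SE 0.25, adjusted p = 0.00780, and 1.71 without RW 2), and these were among 1 higher and 2 lower of 79 amino acid transporters (1.27% and 2.53%, beside 1.79% and 2.15% of all unigenes, median 0.09 [−0.0054 to 0.09]). The endochitinase CHI4 (TRINITY_DN15651_c0_g1) stood at 145, 188 and 181 TPM in DS and 12.6, 18.5 and 11.2 TPM in RW, with a CK mean of 10.4 ± 3.23 TPM. RW was far below DS, a difference of −3.53 (SE 0.26, adjusted p = 0.000134, and −3.73 without RW 2). Of 111 chitinases, glucanases and other pathogenesis-related proteins, 5 were lower and 3 higher (4.5% and 2.7%, beside 2.15% and 1.79% of all unigenes, median 0.28 [0.16 to 0.36], higher count 0 without DS 2 or RW 3 and 1 without DS 3 or RW 1 and lower count 3 without DS 3 or RW 3). CYP75B2 (TRINITY_DN22788_c0_g3), a P450 named for a flavonoid enzyme but described as geraniol 8-hydroxylase, stood at 12.4, 7.16 and 7.66 TPM in DS and 56.8, 49.6 and 81.7 TPM in RW. It rose by 2.67 (SE 0.25, adjusted p = 0.000497, and 2.82 without RW 2), and CYP82A1 (TRINITY_DN20142_c0_g1), a pea-named P450, by 2.4 (SE 0.33, adjusted p = 0.00367, and 2.68 without RW 2). In all, 9 of 181 cytochrome P450 unigenes were higher and 7 lower (4.97% and 3.87%, beside 1.79% and 2.15% of all unigenes, median 0.21 [0.17 to 0.23]), with higher counts of 4 without RW 3 and 5 without DS 1, DS 2 or DS 3 and lower counts of 4 without DS 2 or RW 3. In all 9 fits with 1 library left out, 4 stayed higher and 4 lower. Of 140 UDP-glycosyltransferases 11 were lower and 1 higher (median −0.07 [−0.18 to 0.03], lower count 4 without RW 3, 5 without DS 2 or RW 2, 6 without RW 1 and 7 without DS 1 and higher count 0 without DS 1, DS 2, RW 1 or RW 3 and 2 without RW 2), led by UGT75L6 (TRINITY_DN16444_c0_g5) at −2.88 (SE 0.25, adjusted p = 0.000305, and −2.73 without RW 2). ACS1 (TRINITY_DN13850_c0_g4), which makes the ethylene precursor, stood at 5.89, 4.54 and 9.98 TPM in DS and 0.18, 0 and 0.03 TPM in RW and fell by 2.81 (SE 0.36, adjusted p = 0.00265, and −2.76 without RW 2). Of 11 ethylene synthesis unigenes 1 was lower and 0 higher, against a list median of 0.47 [0.08 to 0.60], with a lower count of 2 without RW 2. Their summed level went the other way, at 527, 197 and 292 TPM in DS and 658, 419 and 550 TPM in RW. ACS1 (−0.38) was no longer called when summed by component. AAP5 (0.61) and CYP75B2 (1.12) were no longer called when summed by description, and UGT75L6 (−1.58) kept the call but moved by over 1.5 times. ACS1 (−5.41) kept the call but moved by over 1.5 times with a pseudocount of 0.1. AAP5 (0.96) was no longer called with a pseudocount of 5, and ACS1 (−1.19) kept the call but moved by over 1.5 times. Chitinases, glucanases and PR proteins had a lower count of 3 with the 6 DS and RW libraries alone. Cytochrome P450 had a lower count of 12 under median-of-ratios scaling. UDP-glycosyltransferases had a lower count of 5 with 1 unigene kept per component and 7 with the 6 DS and RW libraries alone.

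Of 363 cytosolic ribosomal proteins 1 was lower and 0 higher (median −0.12 [−0.30 to −0.08], and 2 were lower without RW 3), of 84 plastid ribosomal proteins 0 were called (median 0.06 [−0.0068 to 0.13]), and of 39 tubulins 0 (median −0.05 [−0.21 to 0.27], and 1 was higher without DS 1 or RW 1). At an unadjusted p under 0.05 in limma with the same minimum fold, 1 plastid ribosomal protein was higher and 1 lower, and 4 tubulins were higher and 2 lower. All 44538 unigenes gave 3150 higher and 2204 lower at that threshold. Markers of other tissues gave 0 calls in either direction, in 34 xylem and secondary wall, 23 phloem, 16 root and nodule, and 52 flower and seed unigenes. At an unadjusted p under 0.05 they gave 5 higher and 1 lower for xylem, 1 and 2 for flower and seed, and 0 for the others. These too stand beside the 3150 and 2204 of all 44538 unigenes. The xylem markers had a median difference of 0.91 [0.53 to 1.37]. Their summed level was 56.6 to 247 TPM in DS, 131 to 551 TPM in RW and 414 to 1316 TPM in CK. On the log2(TPM + 1) scale, 16 of 34 were lower in RW 2 than the mean of RW 1 and RW 3 by over 1, against 6145 of all 44538. Root and nodule markers summed to 1357 TPM in DS 1 against 261 and 232 TPM in DS 2 and DS 3, and to 573 TPM in RW 1 against 185 and 325 TPM in RW 2 and RW 3, with 253 to 361 TPM in CK. Phloem markers summed to 949 to 3680 TPM in DS, 1112 to 2487 TPM in RW and 1969 to 7761 TPM in CK, and flower and seed markers to 573 to 1093 TPM, 546 to 1243 TPM and 696 to 997 TPM. The part of these tissues in the differences was not tested.

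Leaving out RW replicate 2 removed 330 higher and 343 lower calls and added 150 and 45. The added calls included PRB1 and SAG12, which were high in RW 1 and RW 3 and not in RW 2. PRB1 (TRINITY_DN25293_c1_g2), a pathogenesis-related protein by its symbol although its description is a reverse transcriptase, stood at 24.3, 8.28 and 11.3 TPM in DS and 297, 4.41 and 819 TPM in RW, with a CK mean of 268 ± 122 TPM. SAG12 (TRINITY_DN19282_c0_g1), the cysteine protease that marks senescing leaves, stood at 3.14, 7.30 and 8.57 TPM in DS and 295, 2.11 and 87.2 TPM in RW. RW 2 was below all DS libraries in both, and the others were above them. With all libraries neither was called, with differences of 2.94 (SE 1.49, adjusted p = 0.338, and 5.12 without RW 2) and 2.65 (SE 1.33, adjusted p = 0.332, and 4.55 without RW 2), and both were called higher without RW 2. Of 101 cysteine-rich receptor kinases, a family induced by pathogens and oxidative stress, 3 were higher and 1 lower with all libraries, and 10 higher and 0 lower without RW 2. The median was 0.35 [0.10 to 0.71], at 0.71 without RW 2, with a higher count of 1 without DS 1, DS 2, RW 1 or RW 3, and a lower count of 0 without any 1 of the DS or RW libraries. On the log2(TPM + 1) scale, RW 2 was below the mean of RW 1 and RW 3 by over 1 in 44 of the 101, against 6145 of all 44538. CRK25 (TRINITY_DN26285_c1_g5) stood at 6.37, 3.91 and 8.40 TPM in DS and 82.1, 1.2 and 72.9 TPM in RW, where RW 1 and RW 3 were high and RW 2 low. Another CRK25 unigene (TRINITY_DN26344_c4_g1), at 12.6, 8.60 and 19.1 TPM in DS and 61.3, 55.0 and 45.2 TPM in RW, was high in all RW libraries and was called with and without RW 2, at 1.98 (SE 0.26, adjusted p = 0.00333, and 1.96 without RW 2). The reverse pattern occurred as well. A Bowman-Birk proteinase inhibitor (TRINITY_DN18313_c0_g1), of a family that blocks digestive proteases of insects, stood at 42.3, 33.95 and 13.9 TPM in DS and 3.14, 2982 and 1.92 TPM in RW, so that RW 2 alone was high. It was not called with all libraries, with a difference of 0.23 (SE 2.14, adjusted p = 0.972, and −3.02 without RW 2), and was called lower without RW 2. The CRK25 unigene TRINITY_DN26344_c4_g1 (0.37) was no longer called when summed by description. Cysteine-rich receptor kinases had a higher count of 6 with library weights.

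A set of tested unigenes had also been chosen for qRT-PCR after the sequencing, so that the choice is not independent of these libraries. Of those given here, 4 were higher (PFE2, CP12-2, AGT2 and PDCD4) and 8 lower (TIFY10A, WRKY53, PUMP5, At2g30020, XTH6, CAM-1, MED37E and VEP1) in RW. CAM-1 (TRINITY_DN20306_c1_g5), a calmodulin by symbol, stood at 1648, 1697 and 1325 TPM in DS and 445, 448 and 579 TPM in RW, and MED37E (TRINITY_DN24927_c0_g2), an HSP70, at 791, 582 and 507 TPM in DS and 209, 112 and 182 TPM in RW. The groups did not overlap, and the differences were −1.67 (SE 0.20, adjusted p = 0.00169, and −1.61 without RW 2) and −1.92 (SE 0.27, adjusted p = 0.00470, and −1.66 without RW 2). AGT2, an aminotransferase of the mitochondrion, PDCD4 and VEP1 differed by 2.23, 1.04 and −1.63. The calls were lost without DS 1, DS 2, RW 1 or RW 3 for AGT2, DS 2, DS 3 or RW 3 for PDCD4 and DS 1, DS 2, RW 1 or RW 3 for VEP1. The primer pairs that follow define which stretch of 4 of these unigenes was amplified, as forward and reverse primers from 5′ to 3′ in lower case with no part marked, and they are the sequences by which these assembled unigenes can be found again. CAM-1 (−0.999), AGT2 (0.41) and PDCD4 (0.99) were no longer called when summed by component. PDCD4 (1.04) and VEP1 (−1.63) were no longer called with the 6 DS and RW libraries alone. PDCD4 (0.85) was no longer called with a pseudocount of 5, and AGT2 (1.42) kept the call but moved by over 1.5 times. PDCD4 (0.90) was no longer called under median-of-ratios scaling. PDCD4 (0.90) was no longer called under quantile normalization.
TIFY10A forward: tcatcaactatgtctacctc
TIFY10A reverse: tgttgcagactgtgaagaag
PUMP5 forward: ggttttgttgaaggtggtat
PUMP5 reverse: gctgaggaaccggagtagac
WRKY53 forward: attgctatgcttcaccattc
WRKY53 reverse: acatccatcccttgaattag
PFE2 forward: ctctcttcaattccgaaaac
PFE2 reverse: ggcagcttcagattcaacat

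The study had identified microRNA targets by degradome sequencing, which reads the ends of cut transcripts and was not used here. From such targets it had paired a further 18 unigenes with a microRNA of opposite change between DS and RW, again from these plants. Of these, 6 were lower, 1 higher and 11 not called by limma at an adjusted p under 0.05. The study had picked its differential unigenes with edgeR at an unadjusted p under 0.05, so its calls and those here differ in test and threshold. At3g17800 (TRINITY_DN20806_c0_g1), a plastid protein induced by UV-B, was the one that rose, at 12.3, 5.88 and 12.1 TPM in DS and 70.2, 79.5 and 83 TPM in RW and a difference of 2.88 (SE 0.32, adjusted p = 0.00121, and 2.86 without RW 2). The steepest of the lower ones, an uncharacterized protein (TRINITY_DN18346_c0_g4), stood at 300.0, 207 and 189.7 TPM in DS and 3.0, 4.21 and 1.10 TPM in RW, and a second (TRINITY_DN16578_c0_g1) at 304, 469.7 and 261 TPM in DS and 115, 69.4 and 86.1 TPM in RW. RW was below DS in both, with differences of −6.02 (SE 0.34, adjusted p = 4.16e-05, and −6.30 without RW 2) and −1.91 (SE 0.28, adjusted p = 0.00570, and −1.74 without RW 2). BHLH35 (TRINITY_DN14261_c0_g1), a stress-linked bHLH factor, stood at 78.6, 134 and 41.5 TPM in DS and 7.79, 13.8 and 6.13 TPM in RW and differed by −2.98 (SE 0.42, adjusted p = 0.00428, and −3.28 without RW 2), and VTC2 is given above. UPTG (TRINITY_DN14583_c0_g1), described as a UDP-arabinopyranose mutase, differed by −1.11 (SE 0.26, adjusted p = 0.0425, and −1.10 without RW 2), a call lost without CK 1, CK 2, CK 3, DS 2, DS 3, RW 1, RW 2 or RW 3, and another uncharacterized protein (TRINITY_DN17480_c0_g1) by −1.34 (SE 0.25, adjusted p = 0.0178, and −1.19 without RW 2), lost without DS 1, DS 3 or RW 2. Among those not called, RAP2-7 (TRINITY_DN16588_c0_g2), an AP2 factor of flowering time, had a difference of −1.86 (SE 0.57, adjusted p = 0.112, and −1.70 without RW 2), with overlapping levels of 55.9, 37.4 and 9.83 TPM in DS and 4.68, 5.36 and 12.7 TPM in RW and a call, of the fits with 1 library left out, only without DS 3, and the arabinogalactan protein FLA18 (TRINITY_DN23921_c0_g1) one of −0.91 (SE 0.34, adjusted p = 0.194, and −0.85 without RW 2). UPTG (−0.99) and TRINITY_DN17480_c0_g1 (−0.89) were no longer called when summed by component, and TRINITY_DN18346_c0_g4 (−2.74) kept the call but moved by over 1.5 times, and RAP2-7 (−3.09) was called when summed by component. UPTG (−0.90) was no longer called when summed by description, and At3g17800 (1.53) kept the call but moved by over 1.5 times. UPTG (−1.11) was no longer called with the 6 DS and RW libraries alone. UPTG (−1.0) was no longer called under quantile normalization.

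Group means were also placed against the 3 CK libraries. Among the 957 lower unigenes, the DS mean had been above all 3 CK libraries for 98.7%, and the RW mean lay within the CK range for 51.6%, below it for 24.2% and above it for 24.1%. Among the 798 higher unigenes, the DS mean had been below all 3 CK libraries for 93.2%, and the RW mean lay within the CK range for 44.9%, above it for 45.6% and below it for 9.52%. Over all tested unigenes the DS mean was above all CK libraries for 22.6% and below them for 32.8%, and the RW mean lay within the CK range for 57.7%, above it for 24.1% and below it for 18.1%. PFE2 (TRINITY_DN22246_c0_g1) was a case above the range, at a RW mean of 989 TPM against CK values of 867, 423 and 450.4 TPM, and XTH6 (TRINITY_DN19618_c0_g2) a case below, at 158 TPM against 429.8, 398 and 304 TPM. The called unigenes were selected on the same DS and RW values as these shares, so the higher shares among them are a description, and no test was made of RW against CK.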

How the data were processed

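Leaf RNA of M. ruthenica was poly(A)-selected and sequenced as paired ends on an Illumina instrument. The authors assembled unigenes with Trinity and quantified them with Salmon, per their methods, and deposited the TPM of each unigene in 9 libraries, with its length, symbol and protein description. The submitters' processing notes also name HISAT2 2.0 and StringTie 1.3.0, whose part in the TPM is not given. The authors selected differential unigenes with edgeR. Those results were not used here, except that the unigenes paired with a microRNA had been chosen by the study from them. TPM keeps no depth, so no counting interval was computed.

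Unigenes with at least 1 TPM in 3 of the 9 libraries were fitted on log2(TPM + 1) with limma 3.58.1 (R 4.3.3, statmod 1.5.0) over all 3 groups, so that CK also informs the spread. Variances were moderated by robust empirical Bayes with a trend on mean level, with Benjamini-Hochberg adjustment over all tested unigenes. A unigene was called at an adjusted p under 0.05 and a log2 difference beyond 1. With 3 libraries a group, the smallest two-sided p of an exact permutation test is 0.1, so none was used. Tables and figures were made with Python 3.11.15, pandas 2.3.3 and matplotlib 3.10.9. The fit was checked on simulated data.

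Gene lists were assembled by matching text in the protein descriptions, including those from the Swiss-Prot database. The comparison, the members and the lists were chosen with earlier results of these data known. Named unigenes were taken from the 12 largest increases and 12 largest decreases (at least 20 TPM in the higher group, a described protein, groups that did not overlap, called also without RW replicate 2), up to 3 called members of smallest p per list plus the one in the rarer direction, the unigenes the study measured by qRT-PCR or paired with a microRNA, and calls that depended on RW replicate 2. The remaining clock members and other named list members outside this rule were chosen after their values were seen. Alternatives changed the threshold, libraries, weights, pseudocount, filter, scaling and handling of assembly redundancy. A gene measured by qRT-PCR is not reported here.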

Additional observations from a re-analysis of the deposited data

Results flagged for a closer look

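In RW replicate 2, 5.23% of the summed TPM lay in 3618 unigenes that reached 5 TPM there and stayed under 0.5 TPM in the other 8 libraries, where they held at most 0.00322% of the sum. By that definition their share elsewhere had to be small. None could pass the filter of 1 TPM in 3 libraries either, so 0 were tested. These unigenes drew attention as a signal outside the comparison. Of the 3618, 1781 had no protein description and 1450 were described after Medicago truncatula proteins. The species behind the remaining descriptions are not given here. Rescaling TPM without them gave 849 higher and 950 lower unigenes, against 798 and 957.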

How the results depend on the processing

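With 1 library left out, the calls ran from 315 to 682 higher and from 519 to 862 lower unigenes. The fit of the 6 DS and RW libraries alone gave 463 higher and 688 lower, and a pseudocount of 5 gave 473 higher. An unadjusted p under 0.05 with the same minimum fold, the threshold in the study's methods, gave 3150 higher and 2204 lower. Keeping 1 unigene per assembly component gave 633 lower, and 2 alternatives chosen after seeing the data, TPM summed by component and by protein description, gave 519 and 557 lower, with fewer features tested (19493, 19609 and 19275). Library weights, a pseudocount of 0.1, both other filters on low values, both scalings and no minimum fold kept the counts within 1.5 times. For the named unigenes, 2952 of the refitted differences kept their direction and side of the threshold, 111 no longer passed it, 6 newly passed it, and 4 changed sign. All 4 were of the Bowman-Birk inhibitor TRINITY_DN18313_c0_g1, at 0.23 with all libraries, −1.46 with library weights, −0.016 with a pseudocount of 0.1, −0.24 without DS replicate 3 and −3.02 without RW replicate 2, against 1.98 without RW replicate 3.

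A replicate block gave 567 higher and 767 lower unigenes. Deviations of same-numbered DS and RW libraries from their group means correlated at 0.01, 0.06 and −0.03. The labels do not say whether a replicate number stands for anything the libraries share, and this was not tested. The block was not used. RW 1 and RW 3 did not correlate best with their own number, while RW 2 did.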
